A study of Mus musculus with 16 samples.

Results

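The genes described here encode proteins that bring fatty acids into cells or carry them inside, and they comprised Cd36, Fabp1, Fabp2, Fabp4, Fabp5, Lpl, Vldlr, Slc27a1, Slc27a4 and Slc27a5. They were chosen by name as the rows of the gene count table whose Ensembl identifier maps to these symbols, which gave 10 of 46078 genes. All 10 passed the filter on low counts. Liver RNA of male mice (strain labelled C56B6/J, where the study's methods name C57BL6/J) was sequenced in 4 groups of 4 libraries. Diets began at 8 weeks of age and lasted 16 weeks, and were either a control diet (CD) or one with 60% of calories from fat (high-fat diet, HFD). Livers were taken from mice with free access to food (CD fed and HFD fed) or after a 16 h fast (CD fast and HFD fast), and no genetic change or drug distinguished the groups. The labels list the 4 livers of a group as separate samples without naming the animals, so p-values measure the spread between these samples.

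Long-chain fatty acids reach the liver bound to albumin or within lipoproteins. CD36, a scavenger receptor of the plasma membrane, and the fatty acid transport proteins of the Slc27a family promote their entry, and several Slc27a proteins also activate them by coupling to coenzyme A. Cytosolic fatty acid-binding proteins (the Fabp family) carry the poorly soluble fatty acids between membranes and enzymes, whereas lipoprotein lipase (Lpl) releases fatty acids from circulating triglyceride and the very low-density lipoprotein receptor (Vldlr) takes up whole particles. In the fasted state adipose tissue releases fatty acids, and the nuclear receptor PPAR alpha induces hepatic genes for their uptake and oxidation.

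Libraries held 41364448 to 57583153 counts, and CD fed libraries were the deepest (55415835 to 57583153). Levels are given as CPM, the count of a gene relative to the library total after scaling by the trimmed mean of M-values. The summed level of 7 hepatocyte markers, Alb, Ttr and Apoa1 among them, was 106401 to 138059 CPM in CD fed, 89450 to 110633 in CD fast, 110413 to 138605 in HFD fed and 71822 to 103249 in HFD fast livers. With fasting in HFD the median log2 difference of these markers was -0.56, with 1 of 7 called lower, beside 8.86% of all genes called, and 4 with an unadjusted p under 0.05. With fasting in CD and with HFD in fasted mice 1 of 7 was called lower as well, beside 25.2% and 7.70% of all genes called. The 4 enterocyte markers summed to at most 0.909 CPM and Sis was listed at 0 in every library. The 6 adipocyte markers summed to 13.0 to 23.2 CPM in CD fed and 20.6 to 34.6 CPM in CD fast livers. In HFD fed and HFD fast livers they summed to 20.5 to 28.2 and 23.4 to 104 CPM. Of the 2 adipocyte markers tested, 1 rose with fasting in CD and 1 with fasting in HFD, beside 13.7% and 4.78% of all genes called higher. The 9 macrophage markers summed to 322 to 657 CPM in CD fed, 231 to 361 in CD fast, 346 to 522 in HFD fed and 285 to 475 in HFD fast livers. With fasting in CD, 3 of 9 macrophage markers and 4 of 7 endothelial markers fell, where 11.5% of all genes tested fell, and none rose. With HFD in fasted mice 3 of 7 endothelial and 2 of 6 stellate cell markers rose, where 7.70% of all genes were called, and 8 of 9 macrophage markers had a positive difference, 4 of them with an unadjusted p under 0.05. A fit of only the compared groups called 90 of 14446 genes in this comparison, against 1161 in the main fit. The marker calls were read from the main fit only. Of 5 lipid-associated macrophage markers 0 were called in that comparison (median log2 difference 2.01), with 3 above 0 and 3 with an unadjusted p under 0.05. The 2 adipocyte markers tested had a median of 1.47 there, with 0 called. In bulk liver, fewer cells of a type and less RNA per cell cannot be told apart.

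Promoter windows were taken from the RefSeq annotation of GRCm38.p6, which matched 6 of the 10 genes with 9 windows of 250 bases before to 50 bases after an annotated start. Fabp4, Fabp5, Lpl and Slc27a5 had no window in the copy used here, which does not show that RefSeq lacks them, and they were not searched. Both strands were searched for a direct repeat (DR1) of 2 copies of AGGNCA in the same direction with any 1 base between them, the kind of element that PPAR and RXR bind, for its hexamer AGGTCA, for the E-box CACGTG and for the TATA sequence TATAAA. Shown are the bases before the start of Fabp1, the most abundant of the genes and the only one with a DR1 match, and of Cd36, Fabp2 and Slc27a1, which rose with fasting in CD. The window of Slc27a4, which rose with fasting in CD as well, is not shown. The Fabp1 stretch ends before the first GENCODE exon, which begins upstream of the RefSeq start, so that its TATA sequence and its second hexamer are not shown. Each is written in the direction of transcription, from 5′ to 3′, with the DR1 or hexamer match in capitals. The coordinates are chr6:71199629-71199826 on the plus strand for Fabp1, chr5:17835897-17836146 on the minus strand for Cd36, chr3:122894822-122895071 on the plus strand for Fabp2 and chr8:71568621-71568870 on the plus strand for Slc27a1 (the first of its 3 windows).
Fabp1: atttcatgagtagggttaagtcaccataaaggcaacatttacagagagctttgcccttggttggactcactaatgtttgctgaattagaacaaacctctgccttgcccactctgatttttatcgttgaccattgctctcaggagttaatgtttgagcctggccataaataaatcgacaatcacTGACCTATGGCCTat
Cd36: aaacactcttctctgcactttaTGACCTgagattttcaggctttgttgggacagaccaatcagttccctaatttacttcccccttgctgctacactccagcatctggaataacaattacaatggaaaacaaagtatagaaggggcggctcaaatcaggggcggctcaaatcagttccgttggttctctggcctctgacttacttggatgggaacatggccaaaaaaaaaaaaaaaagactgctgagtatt
Fabp2: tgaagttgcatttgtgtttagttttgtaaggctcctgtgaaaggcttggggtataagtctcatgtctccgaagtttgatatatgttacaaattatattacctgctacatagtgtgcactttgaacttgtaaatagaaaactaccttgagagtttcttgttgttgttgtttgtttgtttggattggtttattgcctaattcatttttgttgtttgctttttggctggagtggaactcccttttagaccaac
Slc27a1: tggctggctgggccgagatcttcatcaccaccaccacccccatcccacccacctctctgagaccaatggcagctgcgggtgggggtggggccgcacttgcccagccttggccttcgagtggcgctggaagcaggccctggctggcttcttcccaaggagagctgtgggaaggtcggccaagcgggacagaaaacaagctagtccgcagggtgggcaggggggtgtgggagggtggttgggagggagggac

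The DR1 match of Fabp1 lay at position -67 relative to the RefSeq start, on the minus strand. Of the 32851 promoter windows of 300 bases in the same annotation, 0.381% held such a match. The hexamer was found in the windows of Cd36, at position -228, and of Fabp1, where 1 of its 2 matches lies inside the DR1, and 16.3% of all windows held one. The E-box was found in the last window of Slc27a1 (7.15% of all windows) and the TATA sequence at position -30 of Fabp1 (13.6%). The Fabp2 bases, the first 2 windows of Slc27a1, the Slc27a4 window and both Vldlr windows held none of these letters. The Cd36 window lies inside an intron of the longer gene model of the GENCODE annotation. These matches describe letters in short windows, and binding was not measured.

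The 10 genes spanned a wide range of levels. Per kb of the principal transcript, Fabp1 had a median of 8221 CPM over the 16 libraries, followed by Slc27a5 (339), Fabp2 (126), Cd36 (37.9) and Slc27a4 (10.3). Fabp5 (9.31 CPM per kb), Fabp4 (8.44) and Slc27a1 (8.38) had similar medians, and Lpl (3.22) and Vldlr (0.839) were lowest. The order was not fixed, because Fabp5 reached 112 CPM per kb and Slc27a1 reached 41.2 CPM per kb in single libraries. The ratio of the highest to the lowest library was 1.75 for Slc27a5, 1.89 for Slc27a4 and 2.74 for Fabp1, against 27.2 for Slc27a1 and 47.0 for Fabp5. The lowest count of any of the genes in a library was 75, for Vldlr.

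**Figure D1:**
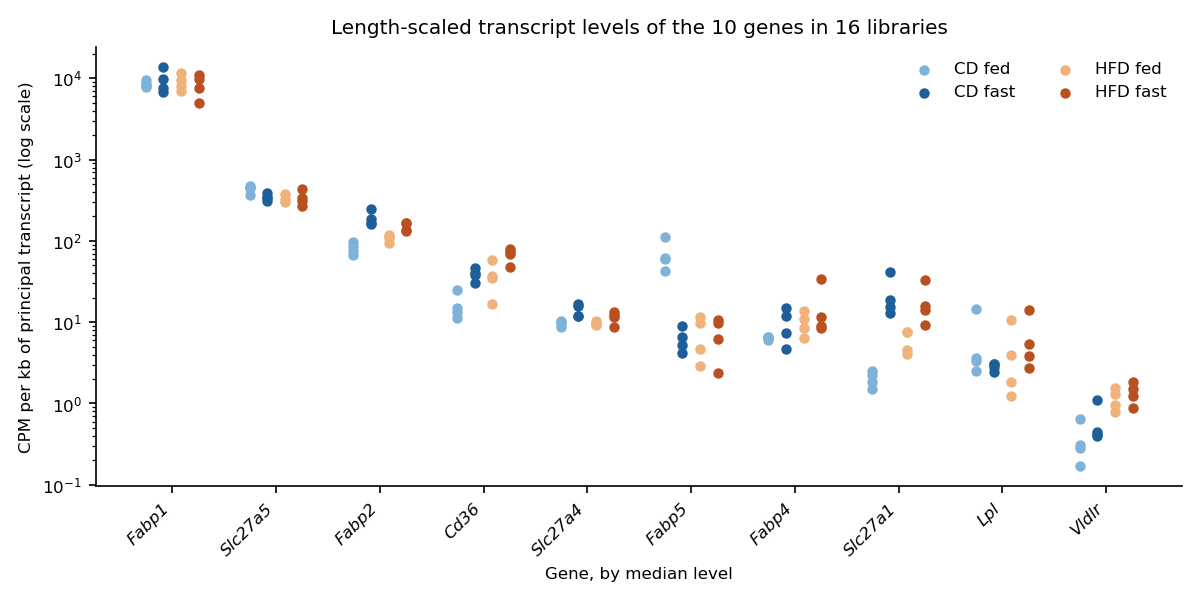
Level of each gene in CPM per kb of its principal transcript (log axis), with genes on the horizontal axis in order of their median and 1 point per library, coloured by group. Fabp1 lies above all other genes in every library, the CD fed libraries of Fabp5 lie above those of the other 3 groups, and the CD fed libraries of Slc27a1 lie below them.

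Fasting in CD changed 5 of the 10 genes (adjusted p under 0.05 in edgeR's quasi-likelihood test), beside 25.2% of the 15075 genes tested. Cd36, Fabp2, Slc27a1 and Slc27a4 rose (13.7% of all genes rose) and Fabp5 fell (11.5% fell), and in each of these 5 the fed and fasted libraries were fully separate (25.4% of all genes). Fasting in HFD raised 2 genes, Fabp2 and Slc27a1, beside 8.86% of all genes called and 4.78% called higher, and the libraries of the same 2 genes did not overlap (16.7% of all genes). Without HFD fed replicate 1 or HFD fast replicate 1 this count was 0. HFD in fed mice changed 4 genes, beside 7.50% of all genes, with Cd36, Vldlr and Slc27a1 higher (3.28% of all genes) and Fabp5 lower (4.22%). Without CD fed replicate 1 only the fall of Fabp5 was called, and without CD fed replicate 2, CD fed replicate 4 or HFD fed replicate 3 the count was 2. HFD in fasted mice changed 0 of the 10 genes in edgeR, beside 7.70% of all genes, although 4 had an unadjusted p under 0.05 and DESeq2 and limma-voom each called 1. Of all genes, 1161 were called in this comparison, but 90 of 14446 in a fit of only the compared groups, 535 without HFD fast replicate 4, 553 without HFD fast replicate 3, and 721 and 705 without CD fast replicates 1 and 2. The difference between the diets in the response to fasting, tested as an interaction, was called for 1 gene, Fabp5, beside 2.59% of all genes and 1.23% with the same sign. The count was 2 without CD fed replicate 1 and 3 without HFD fast replicate 1.

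**Figure D2:**
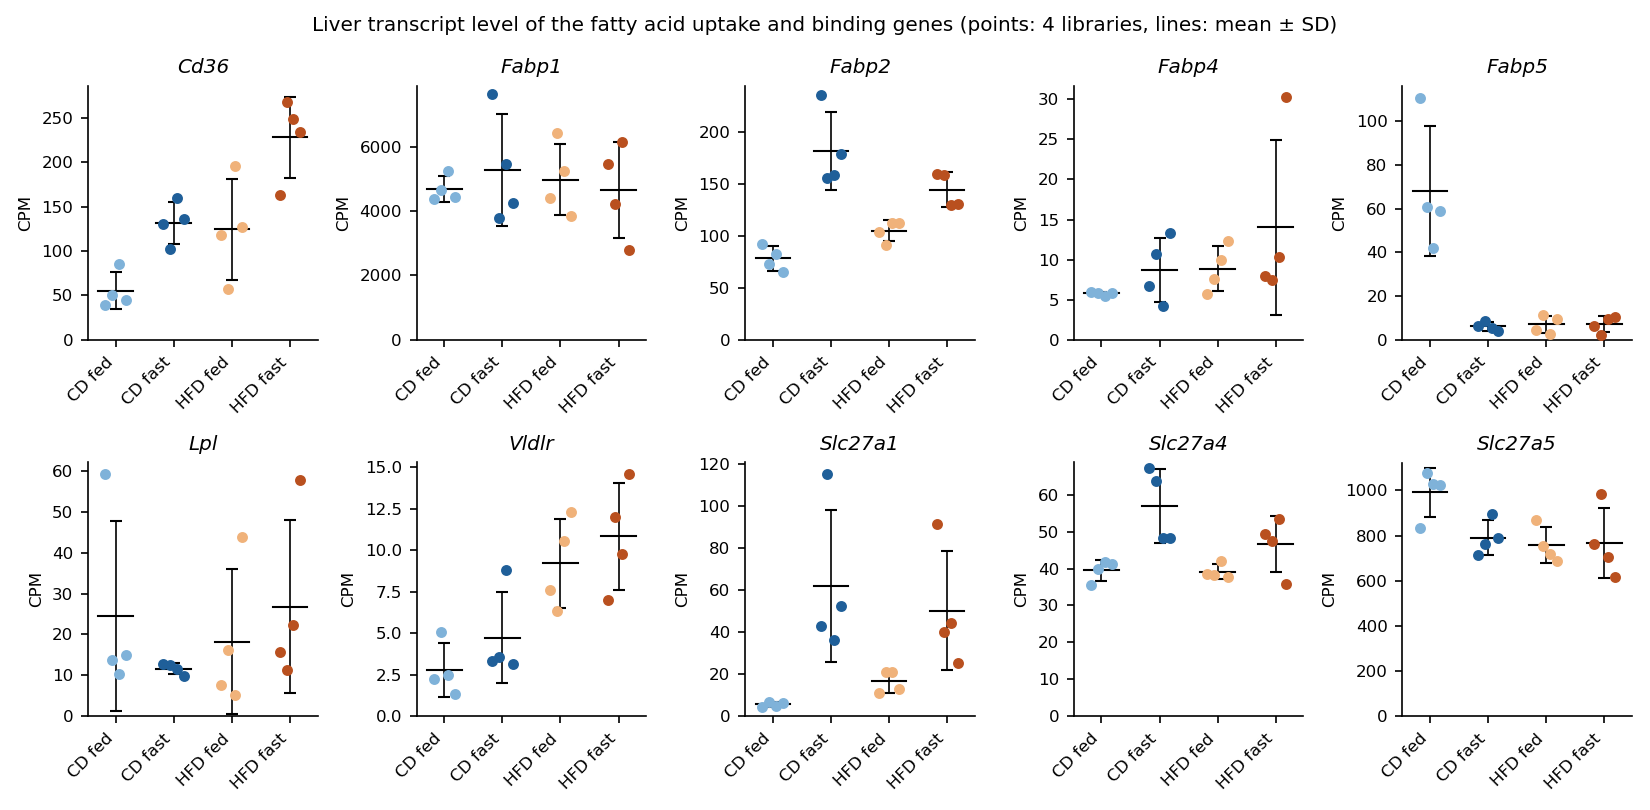
Level of each gene in CPM (vertical axes, from 0) in the 4 groups, with 1 point per library and lines for the mean ± SD of 4 libraries. Fabp5 is high only in the CD fed group, Slc27a1 is lowest there, and Lpl has 1 CD fed library far above the other 3.

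**Figure D3:**
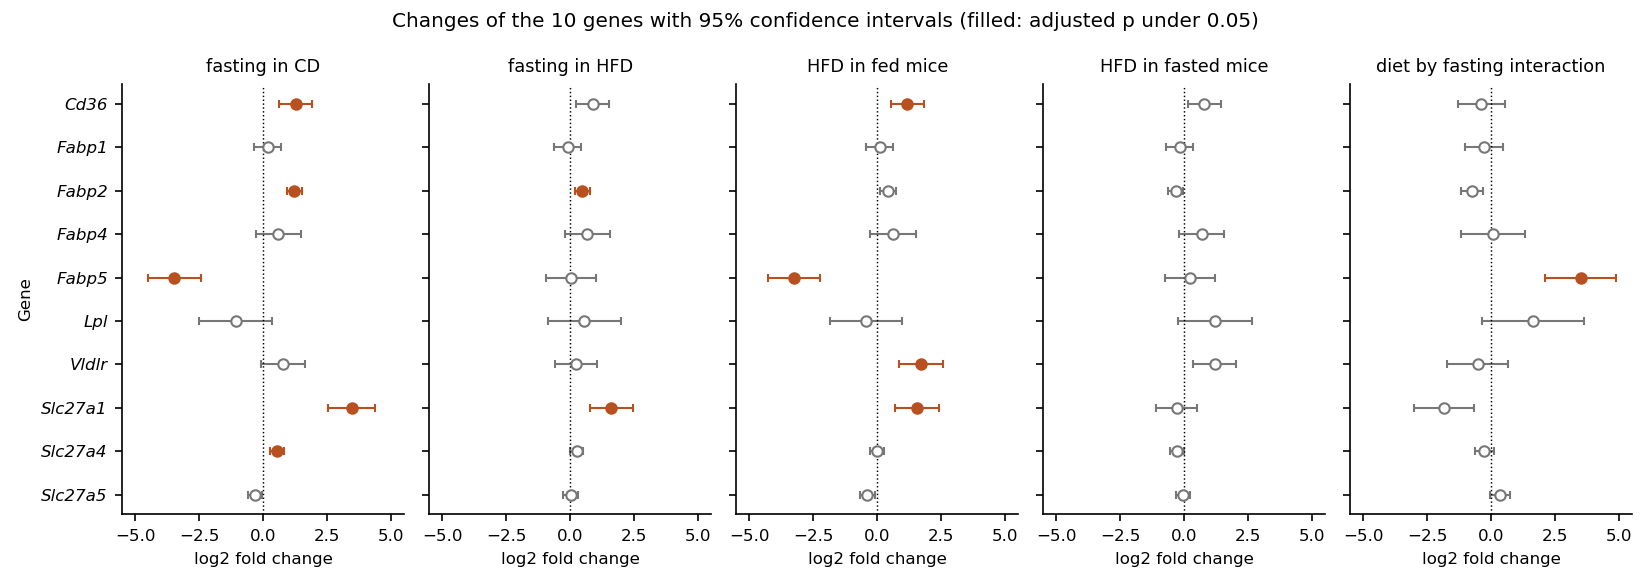
Log2 fold change of each gene (horizontal axes) with its 95% confidence interval in the 4 pairwise comparisons and the interaction, with filled points for an adjusted p under 0.05. Calls are most numerous for fasting in CD (5 genes) and absent for HFD in fasted mice.

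Cd36 (ENSMUSG00000002944, chr5:17781690-17888801, minus strand), the fatty acid receptor of the plasma membrane, was lowest in CD fed and highest in HFD fast livers. It measured 38.6, 50.6, 85.4 and 45.3 CPM in the 4 CD fed libraries and 131, 102, 160 and 135 CPM in CD fast. It measured 118, 56.9, 196 and 127 CPM in HFD fed and 163, 268, 248 and 234 CPM in HFD fast livers. All CD fast libraries exceeded all CD fed ones and all HFD fast libraries exceeded all CD fast ones, whereas HFD fed livers spread over the range of both CD groups. Fasting in CD raised Cd36 by 1.26 ± 0.31 on the log2 scale (SE, n = 4 per group, edgeR adjusted p = 0.00792), or 2.40-fold. HFD in fed mice raised it by 1.18 ± 0.31 (adjusted p = 0.0308), although the libraries overlapped. That call was lost without any 1 of CD fed replicates 1, 2 and 4 or HFD fed replicates 1, 3 and 4, with log2 changes as low as 0.87 and edgeR adjusted p from 0.0535 to 0.111, against 0.00717 to 0.111 over the omission of each of the 16 libraries, and a fit of only the compared groups gave an adjusted p of 0.0770. The difference with fasting in HFD was 0.88 ± 0.30 (adjusted p = 0.0845), and without HFD fed replicate 3, the highest HFD fed library, it was 1.18 with an edgeR adjusted p of 0.0346 (0.0346 to 0.183 over all omissions). The diet difference in fasted mice was 0.79 ± 0.30 (adjusted p = 0.117) with no overlap of the libraries, as for 14.0% of all genes. The interaction was -0.39 with a 95% interval from -1.30 to 0.52, so that a different response to fasting between the diets was not resolved. In the order of group means, HFD fed (124 CPM) and CD fast (132 CPM) did not differ beyond their spread. HFD fast replicate 2, with the most Cd36 (268 CPM), also had the highest summed adipocyte markers of the 16 libraries (104 CPM). HFD fast replicate 4, at 234 CPM of Cd36, had 23.4 CPM of them. Of these markers, Adipoq, Plin1, Lep and Retn did not pass the filter on low counts. Fabp4 and Lpl, which adipocytes also express, were at their lowest among HFD fast libraries in replicate 2 (7.50 and 11.4 CPM). The part of adipocyte RNA in the level of Cd36 was not tested.

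Slc27a1 (ENSMUSG00000031808, chr8:71568882-71587302, plus strand), a transport protein best known from muscle and adipose tissue, showed the steepest rise with fasting of the 10 genes in both diets. It measured 4.23, 6.92, 5.09 and 6.34 CPM in CD fed and 43.2, 115, 36.5 and 52.5 CPM in CD fast livers. It measured 11.2, 21.0, 21.2 and 12.8 CPM in HFD fed and 91.4, 39.9, 44.5 and 25.6 CPM in HFD fast livers. The groups formed 3 separate ranges, with CD fed below HFD fed and HFD fed below both fasted groups, which overlapped each other. Fasting in CD raised Slc27a1 10.9-fold (log2 3.45 ± 0.43, adjusted p = 6.27e-05). Fasting in HFD raised it 3.04-fold (log2 1.60 ± 0.40, adjusted p = 0.0218). Without HFD fed replicate 1 the log2 rise was 1.46 (edgeR adjusted p = 0.0774) and without HFD fast replicate 1 it was 1.15 (adjusted p = 0.0749), within a range of 0.00928 to 0.0774 over the omission of each library. HFD raised Slc27a1 2.93-fold in fed mice (log2 1.55 ± 0.41, adjusted p = 0.0308), and this call was lost without any 1 of the 4 CD fed libraries or HFD fed replicates 2 and 3 (log2 1.41 to 1.66, edgeR adjusted p 0.0557 to 0.0847, and 0.0132 to 0.0847 over all omissions), and in limma-voom (adjusted p = 0.0644). In fasted mice the difference between the diets was -0.30 with a 95% interval from -1.11 to 0.52. The interaction of -1.85 ± 0.56 was not called (adjusted p = 0.0870), and on omission of HFD fast replicate 1 it was -2.31 with an edgeR adjusted p of 0.0260 (0.0260 to 0.162 over all omissions). DESeq2 called it (-1.86, adjusted p = 0.0354).

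Slc27a4 (ENSMUSG00000059316, chr2:29802634-29817522, plus strand), a transport protein with acyl-CoA synthetase activity, varied little. It measured 35.5 to 41.7 CPM in CD fed, 48.1 to 67.1 CPM in CD fast, 37.7 to 42.2 CPM in HFD fed and 35.8 to 53.5 CPM in HFD fast livers. Fasting in CD raised it 1.44-fold (log2 0.52 ± 0.12, adjusted p = 0.00702), and the CD fast libraries all lay above the CD fed ones. With fasting in HFD the difference was 0.25 ± 0.12 (adjusted p = 0.223). The diet difference in fed mice was -0.02 with a 95% interval from -0.28 to 0.25, and its sign depended on the scaling. In fasted mice the diet difference was -0.29 ± 0.12, with a 95% interval from -0.55 to -0.02. It was not called (edgeR adjusted p = 0.157, unadjusted p = 0.0349).

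Slc27a5 (ENSMUSG00000030382, chr7:12988346-12998192, minus strand), the transport protein of hepatocytes that also activates bile acids, was the second most abundant of the genes per kb. It measured 834, 1078, 1028 and 1025 CPM in CD fed and 715, 764, 896 and 790 CPM in CD fast livers. It measured 870, 755, 717 and 688 CPM in HFD fed and 763, 983, 706 and 617 CPM in HFD fast livers. The CD fed group had the highest mean (991 ± 107 CPM, SD, n = 4) and overlapped each of the other 3 groups, whose means lay between 758 and 791 CPM. The log2 difference was -0.33 ± 0.14 with fasting in CD (adjusted p = 0.0894) and -0.39 ± 0.14 with HFD in fed mice (adjusted p = 0.0924). Without HFD fast replicate 2 the edgeR adjusted p was 0.0388 for the first and 0.0472 for the second, within ranges of 0.0388 to 0.198 and 0.0472 to 0.222 over the omission of each library. Both comparisons share the CD fed libraries. The other two pairwise differences were within 0.05 of 0 on the log2 scale, with 95% intervals from -0.27 to 0.30 for fasting in HFD and from -0.33 to 0.24 for HFD in fasted mice.

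Among the cytosolic binding proteins, Fabp1 (ENSMUSG00000054422, chr6:71199827-71205023, plus strand) is the major form of hepatocytes and an established PPAR alpha target. It measured 4358, 4654, 5240 and 4438 CPM in CD fed and 7636, 3777, 5448 and 4233 CPM in CD fast livers. It measured 4407, 6405, 5230 and 3857 CPM in HFD fed and 5470, 4213, 6151 and 2789 CPM in HFD fast livers. All 4 groups overlapped. The CD fast, HFD fast and HFD fed groups (SD 1726, 1481 and 1108 CPM) spread more widely than the CD fed group (SD 398 CPM). Its log2 differences ranged from -0.18 for HFD in fasted mice to 0.17 for fasting in CD, and the lowest adjusted p was 0.645. The 95% interval for fasting in CD reached from -0.35 to 0.70. The estimated log2 rises of Cd36, Fabp2 and Slc27a1 lay above it, but the 95% interval of Cd36 (0.61 to 1.92) overlapped it. The rise of Slc27a4 (0.52) lay inside it, and the genes were not tested against each other.

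Fabp2 (ENSMUSG00000023057, chr3:122895072-122899506, plus strand), the form named for the intestine, had the third highest median per kb of the 10 genes in these livers, where the enterocyte markers Vil1, Sis, Alpi and Lct were at or near 0. It measured 92.5, 73.5, 82.5 and 65.2 CPM in CD fed and 236, 155, 159 and 179 CPM in CD fast livers. It measured 103, 91.5, 113 and 112 CPM in HFD fed and 160, 159, 130 and 131 CPM in HFD fast livers. The fasted libraries lay above the fed ones in both diets, CD fed overlapped HFD fed in their range, and the highest level was found in CD fast livers. Fasting in CD raised Fabp2 2.32-fold (log2 1.22 ± 0.14, adjusted p = 3.52e-05). Fasting in HFD raised it 1.38-fold (log2 0.46 ± 0.14, adjusted p = 0.0483). That call was close to the threshold and was kept only without CD fed replicates 1 or 4 or CD fast replicates 1 or 2, and the omission of any 1 of the other 12 libraries gave log2 values of 0.40 to 0.51 and edgeR adjusted p of 0.0533 to 0.127 (0.0227 to 0.127 over all omissions). The interaction was -0.75 ± 0.20 with an adjusted p of 0.0542, and it was called without CD fed replicate 1 (-0.84, edgeR adjusted p = 0.0472) or HFD fast replicate 1 (-0.81, adjusted p = 0.0493), within a range of 0.0472 to 0.107, and by DESeq2 (adjusted p = 0.00849). The diet difference was 0.42 ± 0.14 in fed mice (adjusted p = 0.0757), where the omission of CD fast replicate 1 gave an edgeR adjusted p of 0.0350 (0.0350 to 0.186 over all omissions), and -0.33 ± 0.14 in fasted mice (adjusted p = 0.144).

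Fabp5 (ENSMUSG00000027533, chr3:10012548-10016607, plus strand), the form named for the epidermis, was high in a single group. It measured 111, 60.7, 41.9 and 58.9 CPM in the CD fed libraries and 6.53, 8.80, 5.18 and 4.16 CPM in CD fast. It measured 4.60, 11.3, 2.88 and 9.58 CPM in HFD fed and 6.14, 2.36, 9.71 and 10.6 CPM in HFD fast livers. The lowest CD fed library stood well above every library of the other 3 groups, and those 3 groups overlapped one another. Fasting in CD lowered Fabp5 11.1-fold (log2 -3.47 ± 0.49, adjusted p = 0.000168). HFD in fed mice lowered it 9.57-fold (log2 -3.26 ± 0.48, adjusted p = 0.00125). Both comparisons rest on the same CD fed libraries. In HFD the log2 difference with fasting was 0.02 (95% interval -0.95 to 0.998), and the diets differed by 0.23 in fasted mice (-0.75 to 1.22). The interaction was 3.49 ± 0.66 (adjusted p = 0.0164). All 3 calls held in each of the 16 fits with 1 library left out, with edgeR adjusted p of at most 0.000987, 0.00569 and 0.0374. The reference holds 5 near-identical copies of Fabp5 (at least 90% identity over 200 bases), which together had 7 counts over the 16 libraries against 18719 for Fabp5, so that reads lost to or gained from copies remain uncertain.

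CD fed replicate 1, the library with the most Fabp5, also had the highest summed macrophage markers (657 CPM), and in the other 3 CD fed libraries these markers summed to 322 to 427 CPM and Fabp5 was 41.9 to 60.7 CPM. HFD fed replicate 4, with 522 CPM of macrophage markers, had 9.58 CPM of Fabp5. Without CD fed replicate 1 the log2 fall of Fabp5 was -3.13 with fasting in CD and -2.92 with HFD in fed mice. The part of macrophage RNA in the level of Fabp5 was not tested.

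Fabp4 (ENSMUSG00000062515, chr3:10204088-10208576, minus strand), the form of adipocytes and macrophages, was low in all groups. It measured 5.96, 5.79, 5.46 and 5.90 CPM in CD fed and 6.65, 10.7, 4.25 and 13.3 CPM in CD fast livers. It measured 5.70, 7.62, 9.90 and 12.3 CPM in HFD fed and 7.98, 7.50, 10.3 and 30.3 CPM in HFD fast livers. The CD fed libraries were nearly equal, the other groups spread widely, and all groups except CD fed and HFD fast overlapped. The 4 pairwise log2 differences lay between 0.59 and 0.69, and the lowest adjusted p was 0.313. Without HFD fast replicate 4, the library at 30.3 CPM, the fasting difference in HFD was -0.04 and the diet difference in fasted mice -0.02.

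Lpl (ENSMUSG00000015568, chr8:68880491-68907448, plus strand), the lipase that acts at the capillary wall in muscle and adipose tissue and is also made by macrophages, differed more within groups than between them. It measured 59.1, 13.7, 10.3 and 15 CPM in CD fed and 12.7, 12.5, 11.5 and 9.97 CPM in CD fast livers. It measured 7.54, 16.3, 5.15 and 43.7 CPM in HFD fed and 15.6, 11.4, 22.2 and 57.7 CPM in HFD fast livers. In 3 of the 4 groups 1 library was far above the rest, and only the CD fast libraries lay close together. None of the comparisons was called, and the 95% intervals were wide, from -2.50 to 0.36 for fasting in CD and from -0.23 to 2.63 for HFD in fasted mice. Without CD fed replicate 1 the difference for HFD in fed mice went from -0.43 to 0.49 and that for fasting in CD from -1.07 to -0.16. Without HFD fast replicate 4 the difference for fasting in HFD went from 0.56 to -0.15 and that for HFD in fasted mice from 1.20 to 0.49.

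Of the 3 libraries with the most Lpl, 2 also had the highest summed macrophage markers of the 16 libraries. CD fed replicate 1 had 657 CPM of summed macrophage markers, 67.2 CPM of Marco and 42.3 CPM of Adgre1, against at most 427, 12 and 20.6 CPM in the other CD fed libraries. HFD fed replicate 4 and HFD fast replicate 4, with 43.7 and 57.7 CPM of Lpl, had 522 and 422 CPM of the summed markers, and the latter lay below HFD fast replicates 1 and 3 (475 and 469 CPM), where Lpl was 15.6 and 22.2 CPM. They also had 16.7 and 39.8 CPM of Gpnmb, a marker of lipid-associated macrophages, which was at most 2.49 CPM in the other 14 libraries. The 5 markers of lipid-associated macrophages summed to 68.3 and 105 CPM in these libraries, to 48.6 CPM in CD fed replicate 1, and to 71.8 CPM in CD fast replicate 4, where Lpl was 9.97 CPM. HFD fast replicate 4 was the library with the most Fabp4 as well. In that library the 6 adipocyte markers summed to 23.4 CPM, against 41.6 to 104 CPM in the other HFD fast libraries, with Adipoq at 0.02 CPM and Plin1, Lep and Retn listed at 0. The part of macrophage RNA in the levels of Lpl and Fabp4 was not tested.

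**Figure D4:**
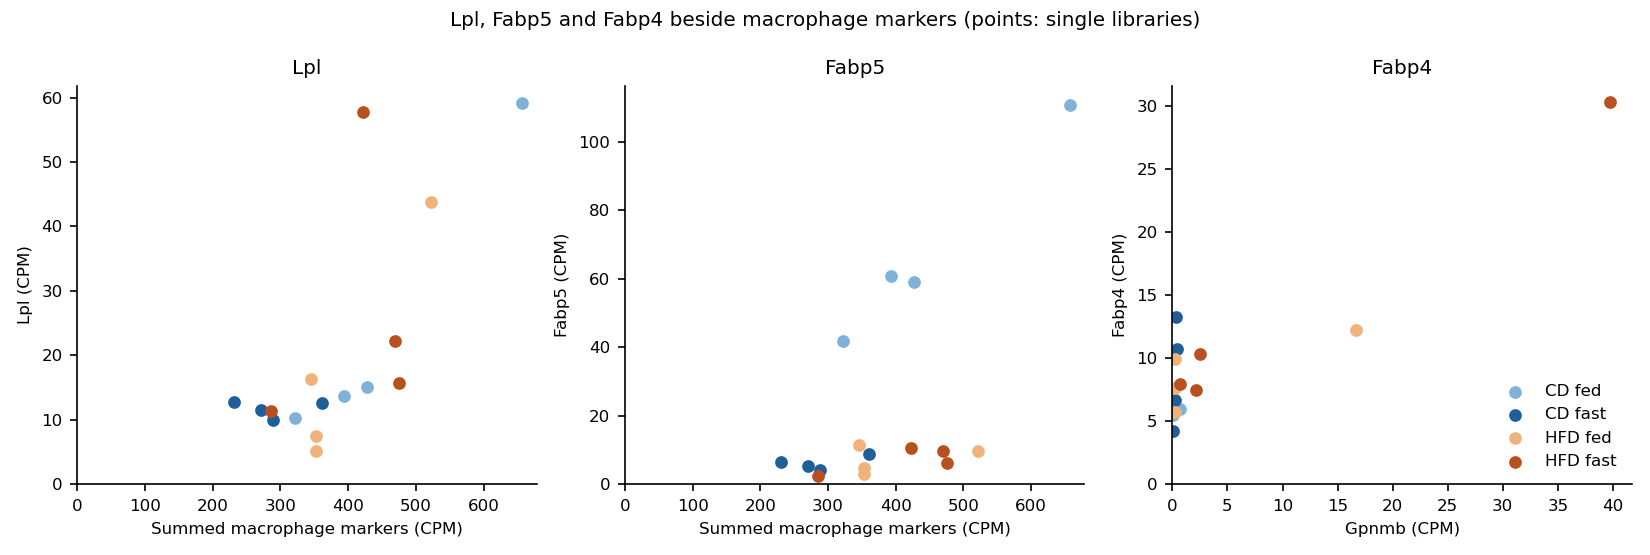
Lpl and Fabp5 against the summed level of 9 macrophage markers, and Fabp4 against Gpnmb, in CPM, with 1 point per library coloured by group. The 3 libraries with the most Lpl are CD fed replicate 1, HFD fed replicate 4 and HFD fast replicate 4, and the library with the most Fabp4 (30.3 CPM) has the most Gpnmb.

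Vldlr (ENSMUSG00000024924, chr19:27216484-27254231, plus strand), the receptor for triglyceride-rich lipoproteins, was the lowest of the 10 genes per kb and was higher in HFD livers. It measured 2.24, 5.08, 2.47 and 1.34 CPM in CD fed and 3.35, 3.56, 8.82 and 3.16 CPM in CD fast livers. It measured 7.62, 6.35, 10.5 and 12.3 CPM in HFD fed and 7.03, 12, 9.77 and 14.6 CPM in HFD fast livers. All HFD fed libraries exceeded all CD fed ones (15.7% of all genes did not overlap in this comparison), and among fasted livers only CD fast replicate 3 reached the HFD range. HFD raised Vldlr 3.31-fold in fed mice (log2 1.72 ± 0.40, adjusted p = 0.0183), which became 1.63 with an edgeR adjusted p of 0.0513 without CD fed replicate 1 (0.00817 to 0.0513 over all omissions). In fasted mice the difference was 1.19 ± 0.39 (adjusted p = 0.0741), and without CD fast replicate 3 it was 1.69 (edgeR adjusted p = 0.0188, range 0.0188 to 0.185). This difference was called by DESeq2 (adjusted p = 0.0214), by limma-voom (0.0481) and with total-count scaling (0.0360). The interaction was -0.53 with a 95% interval from -1.71 to 0.65. Fasting differences were 0.77 ± 0.40 in CD (adjusted p = 0.176) and 0.24 ± 0.38 in HFD (adjusted p = 0.736). The difference in CD was 1.23 with an edgeR adjusted p of 0.0387 without CD fed replicate 2 (0.0387 to 0.641 over all omissions).

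The patterns over the 16 libraries were compared with those of 11004 genes with a mean of at least 100 counts, as a description, since libraries share diet and feeding state. Slc27a1 was most like Decr2 (Pearson r = 0.98), Oplah (0.98) and Acaa1a (0.98), and both Decr2 and Acaa1a encode peroxisomal enzymes of fatty acid oxidation. Fabp2 was most like Gk (0.94), which encodes glycerol kinase, Pus10 (0.94) and Gnl2 (0.93). Cd36 was most like Plin4 (0.93), a lipid droplet coat gene, Lyrm1 (0.93) and Cyp2a22 (0.92). Fabp5 was most like Nes (0.92), Clcn6 (0.91) and Nhsl1 (0.91). Lpl was most like Gngt2 (0.93), Cpd (0.92) and Cxcl16 (0.91), Vldlr like Cyp2b9 (0.86), 4632404H12Rik (0.85) and Hand2 (0.85), and Fabp4 like S100a11 (0.88), Plce1 (0.87) and Ifi27l2b (0.85). Slc27a4 was most like Adprhl2 (0.93), Ptpa (0.92) and Ube2o (0.92), Slc27a5 like Emc9 (0.91), Zdhhc9 (0.89) and Nipsnap1 (0.88), and Fabp1 like Ebag9 (0.82), Mbl1 (0.82) and Fnta (0.80). Between the genes described here, r was 0.83 for Fabp2 with Slc27a1 and -0.82 for Cd36 with Fabp5. After subtraction of group means the same pairs had r of -0.16 and -0.64, and the highest value, 0.82, was that of Fabp5 with Lpl.

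Other genes of the same routes were read from lists. Of 11 further genes of fatty acid transport and activation, 10 were tested, and with fasting in CD 4 rose and 2 fell (median log2 difference -0.51, against -0.01 over all genes tested), beside 13.7% and 11.5% of all genes. Slc27a2, the very long-chain acyl-CoA synthetase of the liver, rose by 1.07 ± 0.10 (adjusted p = 6.92e-06) and Acsl1, the main synthetase for oxidation and storage, by 1.10 ± 0.26 (adjusted p = 0.00572). Acsl3 fell by 0.97 ± 0.19 (adjusted p = 0.00195) and Acsl5 fell by 0.56 ± 0.11 (adjusted p = 0.00162). With HFD in fed mice 1 of the 10 rose and 3 fell, beside 3.28% and 4.22% of all genes, and the count of 4 became 2 without any 1 of CD fed replicates 1, 2 and 3 or HFD fed replicate 3 and 1 without HFD fed replicate 1. Slc27a2 rose by 0.36 ± 0.10 (adjusted p = 0.0342), a call lost without any 1 of CD fed replicates 1, 2 and 3 or HFD fed replicates 1, 2 and 3 (edgeR adjusted p 0.0682 to 0.0997, and 0.0228 to 0.0997 over all omissions) and also with no count filter (0.0823) or with the replicate block (0.05002). In HFD fed livers Acsl3 fell by 0.82 ± 0.19 (adjusted p = 0.0170) and Acsl5 fell by 0.58 ± 0.11 (adjusted p = 0.00489). The Acsl3 call in HFD fed livers was lost on omission of replicate 1 of either fed group, where the edgeR adjusted p was at most 0.0503. With fasting in HFD 1 of 10 genes was called, beside 8.86% of all genes, and this was Slc27a2, which rose by 0.41 ± 0.10 (adjusted p = 0.0179), and without HFD fed replicate 1 or HFD fast replicate 1 its edgeR adjusted p was 0.0585 or 0.0591, and 0.0683 in a fit of only the compared groups. Without HFD fast replicate 4, 2 genes of the list were called. Of 5 other lipid-binding proteins tested, only Dbi, which encodes the acyl-CoA-binding protein, was called, beside 25.2% of all genes with fasting in CD and 8.86% with fasting in HFD, although with fasting in CD 2 were called without replicate 4 of either fasted group and 3 without HFD fed replicate 4. Dbi fell by 0.80 ± 0.14 with fasting in CD (adjusted p = 0.000901) and fell by 0.83 ± 0.14 with fasting in HFD (adjusted p = 0.00286).

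Of 18 genes that handle lipases or encode lipoprotein receptors, 1 rose and 3 fell with fasting in CD (median -0.16), beside 25.2% of all genes called. Fasting in HFD gave 0 calls in edgeR and limma-voom and 1 in DESeq2, beside 8.86% of all genes called in edgeR, and 3 of the genes had an unadjusted p under 0.05. Without HFD fed replicate 4 or HFD fast replicate 2 edgeR called 1. The high-fat diet lowered 2 of them in fed mice, and raised 1 and lowered 3 in fasted mice, beside 7.50% and 7.70% of all genes called. In fed mice the count was 1 without CD fed replicate 1 and 0 without any 1 of CD fed replicates 2 and 4 or HFD fed replicates 1, 2 and 3. In fasted mice it was 2 without any 1 of CD fast replicates 2 and 3 or HFD fast replicates 3 and 4. Sdc1, a proteoglycan that takes up remnant lipoproteins, rose by 0.92 ± 0.14 with fasting in CD (adjusted p = 0.000284) and fell by 0.73 ± 0.14 with HFD in fasted mice (adjusted p = 0.00805). Apoc3, which encodes an apolipoprotein that restrains lipolysis, fell by 0.57 ± 0.12 with HFD in fasted mice (adjusted p = 0.0109). In a fit of only the compared groups the adjusted p in fasted mice was 0.0529 for Sdc1 and 0.0754 for Apoc3. Lsr, the lipolysis-stimulated lipoprotein receptor, fell by 0.62 ± 0.14 with fasting in CD (adjusted p = 0.00554).

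Of 17 PPAR alpha target genes, 15 rose and 0 fell with fasting in CD (median log2 difference 1.21), and 8 rose with fasting in HFD (median 0.59), beside 13.7% and 4.78% of all genes. The latter count was 2 without replicate 1 of either HFD group, 3 without HFD fed replicate 2 and 4 without HFD fast replicate 3. With HFD in fed mice 8 rose (median 0.49), beside 3.28% of all genes, and with HFD in fasted mice 2 fell (median -0.30), where 7.70% of all genes were called. The 2 that fell were Ehhadh (log2 -1.21 ± 0.30, adjusted p = 0.0250) and Cyp4a10 (-1.10 ± 0.29, adjusted p = 0.0327). The calls in fasted mice numbered 0 without any 1 of CD fast replicates 1 and 2 or HFD fast replicates 3 and 4, 1 on omission of HFD fast replicate 2 and 4 on omission of HFD fast replicate 1. The response to fasting was smaller in HFD than in CD for 7 of the 17 by the interaction test, which called 2.59% of all genes. Cyp4a14 rose by 4.72 ± 0.41 with fasting in CD (adjusted p = 4.21e-06) and by 2.996 ± 0.38 with HFD in fed mice (adjusted p = 0.000369). Cyp4a10 rose by 4.09 ± 0.33 with fasting in CD (adjusted p = 2.12e-06) and by 1.48 ± 0.30 with fasting in HFD (adjusted p = 0.00824). Both enzymes hydroxylate the omega end of fatty acids. Beside these, the log2 rise with fasting of Slc27a1 was 3.45 in CD and 1.60 in HFD, that of Fabp2 was 1.22 and 0.46, and that of Cd36 was 1.26 and, not called, 0.88. Fabp1 differed by 0.17 and -0.10, neither of which was called.

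Of 8 lipid droplet genes, fasting raised 5 in CD (median 1.30) and 2 in HFD (median 1.16), and the high-fat diet raised 3 in fed mice (median 0.97) and 1 in fasted mice (median 0.16). Of all genes, 13.7%, 4.78% and 3.28% rose in the first 3 of these comparisons and 7.70% were called in the last. With fasting in HFD only 1 was called without any 1 of HFD fed replicates 1 and 2 or HFD fast replicates 1 and 3. For the diet in fed mice the count was 2 to 4 with 1 library left out. There Fitm2 (adjusted p = 0.0488) lost its call in 12 of the 16 fits with 1 library left out (edgeR adjusted p 0.0242 to 0.159 over all omissions). Plin4, which was most like Cd36 over the libraries, rose in each of the 4 pairwise comparisons, by 2.27 ± 0.21 with fasting in CD (adjusted p = 7.65e-06), by 1.23 ± 0.20 with fasting in HFD (0.00263), and for the diet by 1.97 ± 0.21 in fed mice (0.000142) and 0.93 ± 0.20 in fasted mice (0.0144). Cidec, a promoter of droplet fusion, rose 16.8-fold with fasting in CD (log2 4.07 ± 0.64, adjusted p = 0.000381). Its log2 rise was 3.65 without CD fast replicate 2 and 4.74 without CD fed replicate 3. Of 12 transcriptional regulators, 2 rose with fasting in CD (13.7% of all genes rose), of which Creb3l3 rose by 0.79 ± 0.13 (adjusted p = 0.000603). This count was 1 without any 1 of CD fed replicates 3 and 4 or CD fast replicates 2 and 4, and 4 without CD fast replicate 1. With fasting in HFD, where 8.86% of all genes were called, Pparg rose by 0.95 ± 0.22 (adjusted p = 0.0156) and Hnf4a fell by 0.55 ± 0.10 (adjusted p = 0.00601), and the rise of Pparg had an edgeR adjusted p of 0.0525 without HFD fed replicate 1, whereas 4 regulators were called without HFD fast replicate 4. For HFD, edgeR called 0 regulators in fed mice and 0 in fasted mice, beside 7.50% and 7.70% of all genes, where 2 and 3 had an unadjusted p under 0.05. DESeq2 called 0 and 2 of them, and limma-voom 0 in both, and in fasted mice 1 was called without any 1 of CD fast replicates 1, 3 and 4.

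**Figure D5:**
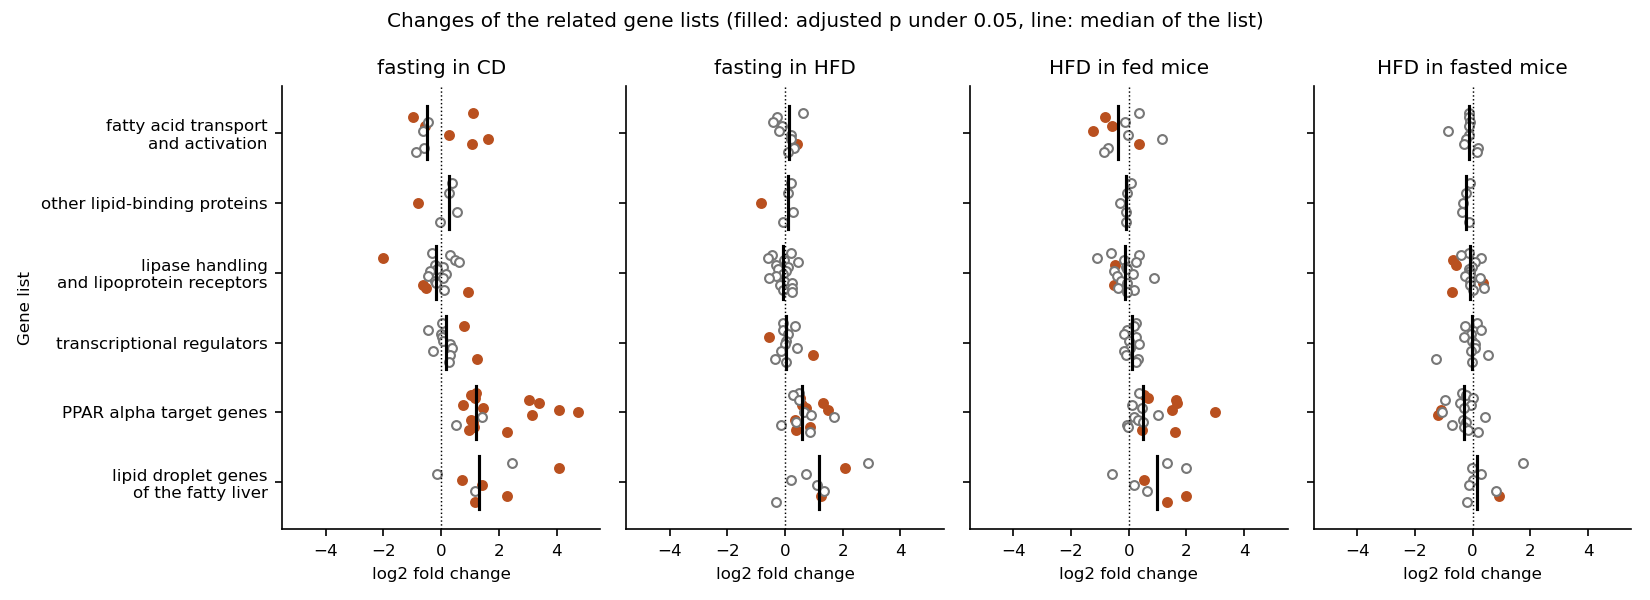
Log2 fold change of each tested gene (horizontal axes) of 6 related gene lists (vertical axis) in the 4 pairwise comparisons, with filled points for an adjusted p under 0.05 and a line at the median of each list. The PPAR alpha target genes lie right of 0 with fasting in CD (median 1.21) and near or left of it with HFD in fasted mice (median -0.30).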

How the data were processed

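The 16 liver libraries were made by the authors from poly(A) RNA (NEBNext Ultra II) and sequenced as paired ends on an Illumina HiSeq. Per the labels and the study's methods, reads were aligned to GRCm38 with TopHat2 2.0.11 in a first-strand mode and counted per gene with featureCounts. The deposited values are raw counts per Ensembl gene in 1 table, with 1 column per library and none left unused. The annotation release and the strand and pair settings of counting are not given in the sources used here, so overlapping antisense genes cannot be separated, although no exon of the 10 genes overlaps an annotated exon of another gene. Counts were tested with edgeR 4.0.16 in R 4.3.3. Genes passing filterByExpr (15075 of 46078) were scaled by TMM and fitted over all 16 libraries with 1 coefficient per group (12 residual degrees of freedom), and two-sided quasi-likelihood tests were adjusted by the Benjamini-Hochberg method over all genes tested, with a threshold of 0.05. Where no tool is named, adjusted p come from edgeR. Confidence intervals are at 95%. Log2 CPM used a prior count of 2. Gene positions and principal transcript lengths were taken from GENCODE (GRCm38). Reads have no molecular identifiers, so counts give counting error only. No pair of libraries of a group agreed within sampling noise. Procedures were tested on simulated data. The 10 genes and the lists were chosen with earlier results of these data known. The genes named were the 10 genes, up to 4 genes of smallest p per list and comparison among those called with no overlap between libraries, and the 3 genes most correlated with each of the 10; Gpnmb and single cell markers were named after their values were seen. Alternatives were limma-voom (limma 3.58.1), DESeq2 1.42.0 and its size factors, scaling to the upper quartile or to total counts, 2 filters on low counts, fits restricted to the compared groups or with the replicate number as a block, a threshold of 0.01, and leaving out each library.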

Additional observations from a re-analysis of the deposited data

Results flagged for a closer look

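Among 180 sets of 4 libraries screened for 1 library far from the other 3, 15 were found, where chance gives about 1 in 20. For the 10 genes these were the highest libraries of Lpl in CD fed (59.1 CPM), Fabp4 in HFD fast (30.3 CPM), Vldlr in CD fast (8.82 CPM) and Slc27a4 in HFD fed livers (42.2 CPM). Among genes of the related lists the highest library stood apart for Slc27a2 in CD fed (1535 CPM) and for Cyp4a10 (6835 CPM), Cyp4a14 (12183 CPM) and Apoc3 (1552 CPM) in CD fast livers, and the lowest library for Pparg (11.8 CPM) and Fitm2 (91.8 CPM) in HFD fast livers. Among summed cell markers the highest library stood apart for macrophages in HFD fed (522 CPM), lipid-associated macrophages in CD fast (71.8 CPM), enterocytes in HFD fed (0.909 CPM) and erythroid cells in HFD fast livers (403 CPM), and the lowest for endothelial cells in HFD fed livers (224 CPM).

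The response to fasting differed between the diets by the interaction test for Fabp5 (log2 3.49, edgeR adjusted p = 0.0164), which fell with fasting in CD and was low in both HFD groups. Among the list genes chosen by the naming rule it differed for Cyp4a14 (-4.06, adjusted p = 0.00287), Cyp4a10 (-2.61, 0.00838), Acadl (-0.75, 0.0114), Ehhadh (-2.24, 0.0165), Slc27a2 (-0.65, 0.0244) and Plin5 (-1.503, 0.0292), each with the lower log2 difference with fasting in HFD. Plin5 differed by -0.32 with fasting in HFD (adjusted p = 0.424), against a rise of 1.19 in CD. Hadha, Acot1 and Acot2, which that rule left out, were called for the interaction as well.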

How the results depend on the processing

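With fasting in CD 5 genes were called under each alternative except total-count scaling, which called 6, and 5 or 6 with 1 library left out. With fasting in HFD 1 gene was called with DESeq2 size factors or no count filter, which did not call Fabp2 (adjusted p = 0.0531 and 0.0662), 0 at an adjusted p under 0.01, and 0 to 2 with 1 library left out, whereas DESeq2 and the replicate block called 3, with Cd36 added (adjusted p = 0.0331 and 0.0314). With HFD in fed mice 1 gene was called at an adjusted p under 0.01, and 1 to 5 with 1 library left out, whereas DESeq2 called 6, with Fabp2 (0.0401) and Slc27a5 (0.0432) added, and total-count scaling and the replicate block 5, with Fabp2 added (0.0419 and 0.0485), and limma-voom and the fit of only the compared groups called 3. With HFD in fasted mice DESeq2 and limma-voom called 1 gene, Vldlr, total-count scaling 2, Vldlr and Cd36 (adjusted p = 0.0477), and the omission of 1 library 0 to 1. For the interaction DESeq2 called 3 genes, Fabp5, Fabp2 and Slc27a1, the filter of at least 1 CPM in 4 libraries 2, an adjusted p under 0.01 0, and the omission of 1 library 1 to 3. A fit with the replicate block called 2 genes for the interaction, Fabp5 and Fabp2 (adjusted p = 0.0431), but same-numbered libraries correlated with r of -0.24 to 0.66 and only 5 of 16 correlated best with their own number, so the numbers do not pair them. Of all genes, edgeR called 1335 with fasting in HFD and DESeq2 2009, and for the diet in fed mice they called 1131 and 1768, for the diet in fasted mice 1161 and 1967 (2101 with total-count scaling), and for the interaction 390 and 1066. With 1 library left out the lowest such counts were 505 for fasting in HFD (HFD fed replicate 1), 514 for the diet in fed mice and 147 for the interaction (both CD fed replicate 2). Total-count scaling moved the median of all genes from 0.013 to 0.17 for HFD in fasted mice and turned Slc27a5 to 0.11, and for HFD in fed mice total-count and upper-quartile scaling turned Slc27a4 (-0.02) to 0.055 and 0.0058.

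With 1 library left out, signs changed among uncalled differences, and their causes were not tested. Fabp1 ranged from -0.058 to 0.31 with fasting in CD, -0.26 to 0.086 with fasting in HFD, -0.055 to 0.19 for the diet in fed mice and -0.34 to 0.052 in fasted mice. Fabp4 ranged from -0.044 to 0.86 with fasting in HFD, -0.016 to 0.97 for the diet in fasted mice and -0.64 to 0.34 for the interaction. Fabp5 ranged from -0.24 to 0.34 with fasting in HFD and -0.016 to 0.52 for the diet in fasted mice, and Lpl from -0.15 to 1.47 with fasting in HFD and -1.34 to 0.49 for the diet in fed mice. Slc27a1 ranged from -0.76 to 0.19 for the diet in fasted mice, Slc27a4 from -0.064 to 0.011 in fed mice, and Slc27a5 from -0.14 to 0.11 with fasting in HFD and -0.19 to 0.047 in fasted mice.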
